A study of Mus musculus with 45 samples.

Results

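The liver strain-by-diet interaction asks of each gene whether the change between a low-fat and a high-fat diet differed between B6 and 129S6 mice. It was taken from all 16 liver arrays among the 45 arrays of a study of liver, skeletal muscle and epididymal fat. The B6 mice (C57Bl/6) and the 129S6 mice (129S6/SvEvTac) were inbred, 6 months old, and carried no allele or agent besides their strain and diet that the labels name. Each of the 4 groups, B6 on low fat, B6 on high fat, 129S6 on low fat and 129S6 on high fat, had 4 arrays. The RNA of 2 to 3 mice was pooled for each array, and every error below is the spread between such pools. The labels describe 1 diet, with 21% fat, 57% carbohydrate and 22% protein by calories. Which group ate it, and what the other diet held, was not stated.

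Inbred strains of mouse differ in how readily a fatty diet makes them obese and insulin resistant, and B6 is the strain most often used as a susceptible one. The liver handles dietary fat by making and exporting lipids, by oxidising fatty acids in mitochondria and peroxisomes, and by turning over cholesterol, bile acids and steroids. A gene enters the interaction in several ways, since the strains may start from different levels on low fat, end at different levels on high fat, or exchange places. The contrast used throughout is the difference between high fat and low fat in B6 minus the same difference in 129S6, in log2 units ± SE. A negative contrast therefore marks a gene that moved down further, or up less, in B6. Array values are log2 expression levels, 1 unit being a doubling, and adjusted p-values come from limma over 8251 genes with a threshold of 0.05.

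Technical measures of the arrays moved with the groups, and several results below rest on the arrays concerned. The labelled tissue was borne out by its markers, as all 11 measured hepatocyte genes lay above 7 log2 units on average and their mean was between 10.99 and 11.61 on every array. Numbers in the sample names fall into 3 runs, which held the B6 low-fat arrays alone (run L1), 129S6 low-fat replicates 5 and 6 with the 129S6 high-fat arrays (run L2), and 129S6 low-fat replicates 11 and 12 with the B6 high-fat arrays (run L3). The run L1 and the B6 low-fat group cannot be told apart. That group also had a larger spread over probe sets, with SDs of 1.91 to 1.98 log2 units against 1.81 to 1.90 on the other arrays. Its signal at the 3' end of Gapdh exceeded that at the 5' end by 0.824 to 1.69 log2 units, against 0.0396 to 0.406 on every other array but 129S6 low-fat replicate 11, where the gap was 3.26. Among the B6 high-fat arrays, replicate 13 was the highest in the mean of 14 macrophage genes (8.37) and of 23 skeletal muscle genes (6.57), and replicate 16 in that of 7 pancreas genes (8.54).

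In total 453 of 8251 genes, 5.49% of those tested, had a diet difference that differed between the strains. The great majority, 382 genes (4.63%), were more negative in B6, and 71 (0.861%) were more positive. Contrasts past the threshold ranged in size from 0.342 to 3.78 log2 units. Among the 382 more negative genes the median diet difference was -0.59 in B6 and 0.11 in 129S6, and 362 of them fell in B6 by the test within that strain. Only 3 of the 382 rose in 129S6 by the same kind of test. Of the 71 more positive genes 59 rose in B6 and 2 fell in 129S6. Diet alone passed the threshold for 1502 genes in B6 (18.2%) and for 19 in 129S6 (0.23%). These within-strain counts use the same arrays as the contrast and describe its parts. The diet difference had opposite signs in the strains for 328 of the 382 genes (85.9%) and 55 of the 71 (77.5%), against 46.3% of all genes tested. These genes were chosen by how far their 2 diet differences lay apart, which by itself raises the share of opposite signs. The share is therefore no separate result, and few of the 129S6 differences passed by themselves.

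The size of the count depended on the arrays and on how their technical differences were handled. With the run of array numbers as a random block, which gave an estimated correlation of 0.399 within runs, 11 genes passed, 1 more positive and 10 more negative. With the run as a fixed block the contrast could not be estimated. With the spread of each array as a covariate 822 genes passed and the split was 434 more positive against 388 more negative, in place of 71 against 382, and 239 of the 453 genes were among them. Quantile normalization left 298 genes, of which 266 were among the 453. Leaving out 1 array at a time gave from 263 genes, without 129S6 high-fat replicate 9, to 849, without 129S6 low-fat replicate 11, the array of high Gapdh 3' signal. It was also below the reported count by over 1.5 times without any 1 of B6 low-fat replicate 4 (267 genes), replicate 15 of B6 on high fat (298) and replicate 8 of 129S6 on high fat (299). Of the 453 genes 243 passed in each of the 16 fits that left out 1 array, and 447 kept their sign in every setting. H2-Q1, Mid1ip1, Hsd17b10, Hsd17b2 and Gstm6 were among the 11 genes that passed in every setting in which they were tested, and 74 of the 85 contrasts chosen by rule for naming passed in the reported fit and not with the random block.

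**Figure D1:**
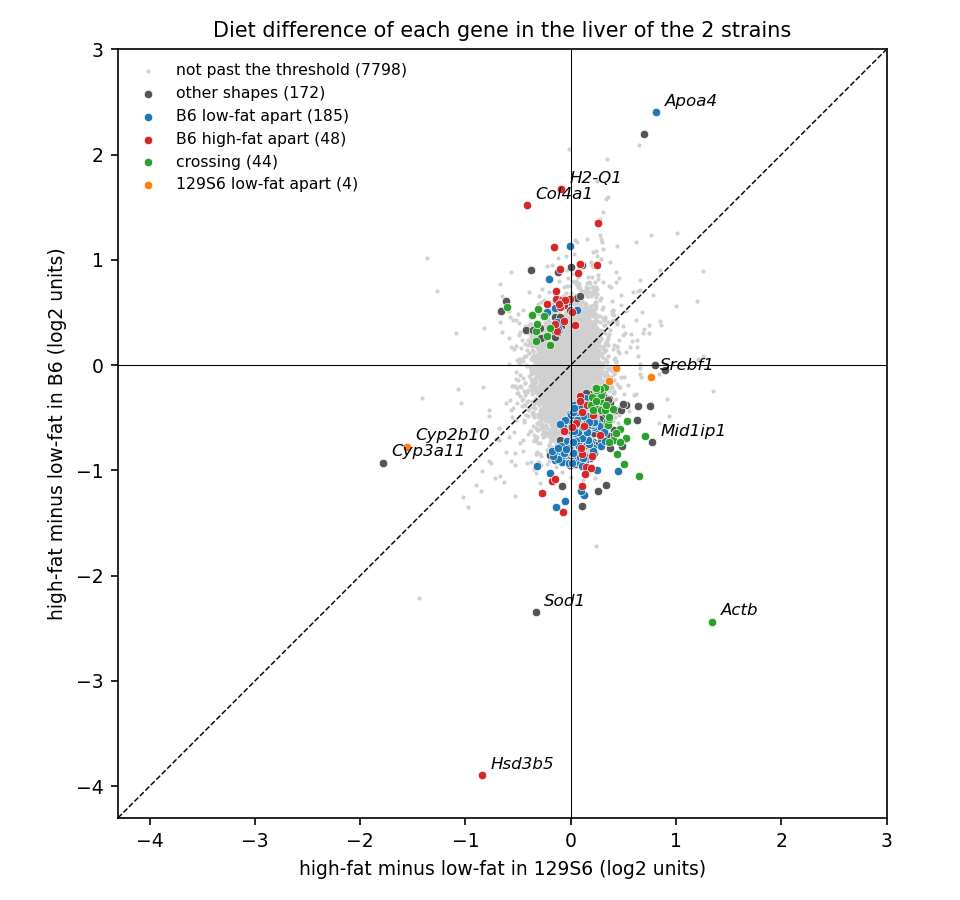
Each point is a gene, placed by its high-fat minus low-fat difference in 129S6 (horizontal) and in B6 (vertical), both in log2 units; coloured points are the 453 genes past the threshold, coloured by the shape of their group means, and the dashed line marks equal differences. Most coloured points lie below 0 in B6 and close to 0 in 129S6, and Hsd3b5 and Actb lie farthest from the line.

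The shapes of the 4 group means were sorted by 2 rules with a ratio of 2. A response was assigned mainly to 1 strain when its diet difference was at least 2 times that of the other, and called opposite when the differences had unlike signs and neither was that much larger. The gap between the strains was said to open, close or turn in the same way from its size on each diet. Of the 453 genes 358 (79.0%) responded mainly in B6, 88 (19.4%) in opposite directions, 6 mainly in 129S6 and 1 in both strains alike in direction. Over all 8251 genes the same rule assigned 49.2% to B6, 16.3% to opposite directions and 15.8% to 129S6.

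Put together, the rules give shapes in which 1 group stands apart from the other 3. The B6 low-fat group stood apart for 185 genes (40.8%, against 24% of all genes), and 175 of these were more negative in B6. The B6 high-fat group stood apart for 48 genes (10.6%, against 10.1% of all genes), 24 in each direction. The 129S6 low-fat group stood apart for 4 genes, Srebf1, Cyp2b10, Pmm1 and Rasip1, and the 129S6 high-fat group for none, although 330 and 458 genes of the whole table had those shapes. The strains were said to cross when the response was opposite and the gap turned, which held for 44 genes (9.71%, against 3.98%), and 172 had other shapes. A turned gap with any response held for 166 genes (36.6%, against 16.4% of all genes). The genes were chosen by the contrast, so these shares are a description and no test. At a ratio of 3 the B6 low-fat count was 113 and the B6 high-fat count 25, and after quantile normalization the B6 low-fat count was 89.

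The order of the groups in single arrays was as in the shapes, for the 453 genes that the contrast had chosen on these same arrays. The 4 B6 low-fat arrays lay above all other 12 for 223 of the 453 genes and below them for 13, together 52.1%, against 6.51% of all genes tested. The 4 B6 high-fat arrays lay outside the range of the others for 79 genes (17.4%, against 2.75%), 53 of them below. For the 129S6 low-fat arrays this held for 11 genes (2.43%, against 0.558%) and for the 129S6 high-fat arrays for 4 (0.883%, against 0.376%). Genes past the threshold on these arrays had to differ in some group, so the shares describe which group it was and not how often. They are no separate support for the shapes. The B6 low-fat group, which leads this order, is also the group of run L1, of the largest array spread and of a raised Gapdh 3' signal. The counts of genes with this group apart, with the spread and the Gapdh signal as covariates, are given in the paragraph before. The order in single arrays was not taken with these covariates, and the part of these and of the run in it was not tested.

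**Figure D2:**
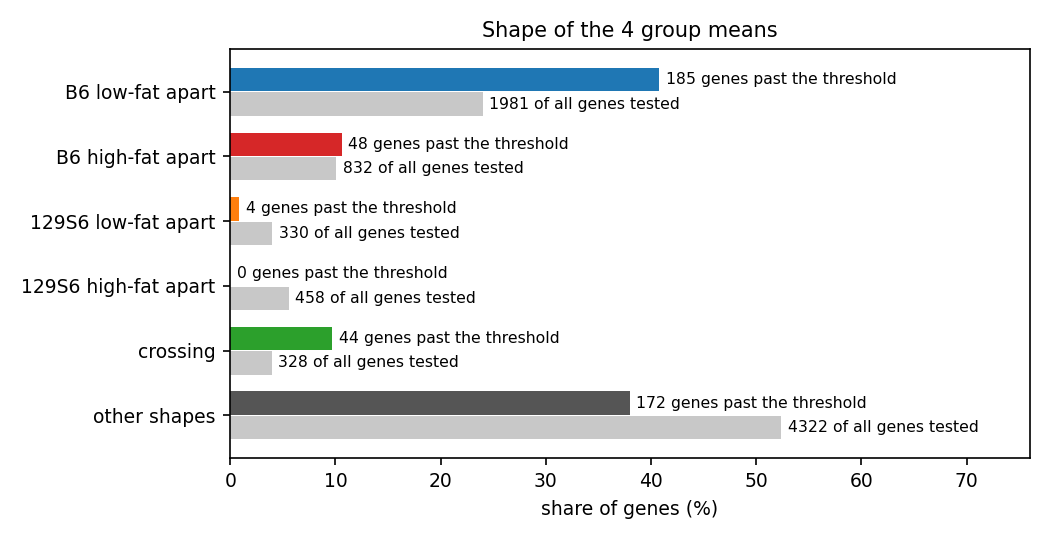
Horizontal bars give the share, in percent, of genes whose 4 group means had each shape; the coloured bar is of the 453 genes past the threshold and the grey bar of all 8251 genes tested. The B6 low-fat group stood apart for 40.8% of the former and 24% of the latter, and the B6 high-fat group for 10.6% and 10.1%.

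Among the genes for which the B6 high-fat group stood apart, Hsd3b5, Hsd11b1, Igfals and Nr1i3 lay low and Col4a1, H2-Q1 and Gja1 lay high. Hsd3b5, a hydroxysteroid dehydrogenase of male mouse liver, was at 8.27, 8.88, 9.83 and 9.57 in B6 on low fat and at 4.42, 6.53, 5.24 and 4.79 on high fat. The 129S6 arrays were at 8.40, 8.63, 9.97 and 9.29 on low fat and at 8.18, 8.47, 8.14 and 8.13 on high fat. The B6 groups did not overlap and the 129S6 groups did, and the 4 B6 high-fat arrays were below all others. The contrast was -3.05 ± 0.59 (n = 4 arrays a group, adjusted p = 0.00576), from -3.89 ± 0.41 in B6 and -0.84 ± 0.41 in 129S6, and it lay between -3.69 and -2.49 in all settings. With the random block it was -3.69 and did not pass (adjusted p = 0.094).

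Hsd11b1, the enzyme that regenerates active glucocorticoid within the liver, had the same shape with less spread. Its values were 10.42, 10.70, 10.20 and 10.47 in B6 on low fat, 8.88, 9.26, 9.04 and 9.03 in B6 on high fat, 10.45, 10.23, 10.78 and 9.99 in 129S6 on low fat and 10.21, 10.30, 10.48 and 10.19 in 129S6 on high fat. All arrays but those of B6 on high fat lay within 1 log2 unit. The contrast was -1.32 ± 0.21 (adjusted p = 0.00177), and the strains differed by 0.08 log2 units on low fat and by -1.24 on high fat.

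Igfals, the acid-labile subunit that carries insulin-like growth factors in the blood and is induced by growth hormone, was at 9.13, 9.62, 9.58 and 9.51 in B6 on low fat and at 8.20, 8.59, 8.36 and 8.36 on high fat. Levels in 129S6 were 9.88, 9.62, 9.51 and 9.67 on low fat and at 9.61, 9.53, 9.51 and 9.43 on high fat. The contrast was -0.93 ± 0.16 (adjusted p = 0.00291), and again only the B6 high-fat arrays left the common range. Igf1 itself had a contrast of -0.37 ± 0.19 that did not pass (adjusted p = 0.275), and another of its probe sets had -0.65 ± 0.21 (adjusted p = 0.0858). Igf1 passed with array weights (adjusted p = 0.00975) and without 129S6 low-fat replicate 11 (adjusted p = 0.0223).

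Growth hormone acts in hepatocytes through STAT5, whose sites have the letters TTCNNNGAA. The promoters of Igfals and of Hgfac, a secreted protease that activates hepatocyte growth factor and that was also lower in B6 on high fat, are shown because both hold these letters, which stand in capitals. Igfals has 3 windows, of which 2 hold the letters, and 1 of these is shown. Each window runs from 250 bases before to 50 bases after a start of the gene in RefSeq (build GRCm38.p6), both on the plus strand, at chr17:24877981-24878280 and chr5:35041259-35041558.
Igfals: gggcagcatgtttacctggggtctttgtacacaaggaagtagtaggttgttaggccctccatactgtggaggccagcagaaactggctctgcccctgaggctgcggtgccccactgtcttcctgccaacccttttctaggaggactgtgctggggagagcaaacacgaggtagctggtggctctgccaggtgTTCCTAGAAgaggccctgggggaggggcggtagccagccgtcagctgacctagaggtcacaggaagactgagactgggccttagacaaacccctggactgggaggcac
Hgfac: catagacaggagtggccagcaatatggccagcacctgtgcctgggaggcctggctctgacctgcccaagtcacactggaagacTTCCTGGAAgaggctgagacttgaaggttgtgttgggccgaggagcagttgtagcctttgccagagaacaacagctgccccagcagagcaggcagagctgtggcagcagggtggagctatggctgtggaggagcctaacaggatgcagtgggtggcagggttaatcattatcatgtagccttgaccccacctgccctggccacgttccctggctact

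The letters were searched on both strands in the promoters of the 6576 tested genes that have one in the table. TTCNNNGAA stood in 8.5% of them, in 33 of the 314 promoters of more negative genes (10.5%), in 3 of the 55 of more positive genes (5.45%) and in 3 of the 35 of genes with the B6 high-fat group apart (8.57%), all near the share of all promoters. The E-box CACGTG stood in 11.5% of all promoters and in 40 of the 314 (12.7%). The sterol regulatory letters TCACNCCAC stood in 1.64% of all and in 3 of the 314 (0.955%), and the direct repeat 1 motif in 1 promoter of the whole table.

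Nr1i3, the nuclear receptor CAR, which drives drug-metabolising enzymes, was at 9.18, 9.34, 9.50 and 9.41 in B6 on low fat and 8.38, 8.23, 8.33 and 8.35 on high fat. Its 129S6 values were 9.63, 9.28, 8.64 and 9.36 on low fat and 9.09, 9.38, 9.64 and 9.34 on high fat. The B6 high-fat arrays lay below all others. The contrast was -1.17 ± 0.23 (adjusted p = 0.00621), but its other 2 probe sets gave -0.52 ± 0.16 and -0.33 ± 0.14, neither past the threshold over all probe sets.

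The 3 genes of this shape with the largest positive contrasts were Col4a1, H2-Q1 and Gja1. Col4a1, a collagen chain of basement membranes, was at 7.20, 6.33, 6.47 and 6.55 in B6 on low fat, 8.62, 8.06, 7.91 and 8.05 on high fat, 6.49, 6.03, 7.23 and 7.03 in 129S6 on low fat and 6.23, 6.33, 6.44 and 6.14 on high fat. Its contrast was 1.94 ± 0.33 (adjusted p = 0.00279), the largest positive one among genes past the threshold. The 11 measured stellate cell and fibroblast markers averaged 7.21 to 7.40 on the B6 high-fat arrays and 6.93 to 7.11 on all others. None of the 11 passed on its own, with Col1a1 at a contrast of 0.48 (adjusted p = 0.0933) and Col3a1 at 0.33 (adjusted p = 0.315). Pdgfrb stayed between 4.94 and 5.02 in the means of all groups. The 9 measured endothelial markers averaged 6.53 to 6.68 on the B6 high-fat arrays and 6.33 to 6.47 on the others, and 1 of them passed, Lyve1 at 0.70 ± 0.16. In bulk tissue more cells of a type and more RNA per cell cannot be told apart, and the part of either list in Col4a1 was not tested. With the random block its contrast was 1.44 (adjusted p = 0.222).

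H2-Q1, a class Ib histocompatibility gene, was at 5.76, 5.45, 5.30 and 5.51 in B6 on low fat and at 7.01, 7.05, 7.31 and 7.34 on high fat. The corresponding 129S6 values were 5.16, 5.25, 5.10 and 4.97 on low fat and at 5.20, 4.99, 4.89 and 5.04 on high fat. No B6 high-fat array came near the others, and the contrast of 1.76 ± 0.16 had the smallest adjusted p of all genes named here (2.59e-05). It lay between 1.55 and 1.86 in all settings, the random block included. Class I genes are polymorphic and nearly alike in sequence, so which of them this probe set reads is uncertain. Of 24 antigen presentation genes the other one to pass was H2-DMa (0.55 ± 0.15), which loads class II molecules, and its second probe set gave 0.33 ± 0.34. Given the array spread H2-DMa was at 0.27 (adjusted p = 0.207), and 9 of the fits that left out 1 array lost its call.

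Gja1, connexin 43, was at 5.31, 5.36, 4.97 and 5.31 in B6 on low fat and 6.57, 6.10, 6.55 and 6.23 on high fat. The 129S6 arrays were at 5.29, 4.98, 6.28 and 5.77 on low fat and 5.37, 5.52, 5.35 and 5.43 on high fat. The B6 groups were apart, while 129S6 low-fat replicate 11 reached the B6 high-fat range. The contrast was 1.29 ± 0.29 (adjusted p = 0.0143), and 0.78 with the random block (adjusted p = 0.452).

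Further genes with this shape were Plin4, a lipid droplet coat protein, at 0.69 ± 0.14, and Anxa2, a membrane-binding annexin, at 0.70 ± 0.12, both higher in B6 on high fat. Hk2, a hexokinase little used by hepatocytes, had a contrast of 1.02 ± 0.27. It was at 6.62 on B6 high-fat replicate 13, the array of high macrophage and skeletal muscle means, and at 5.59, 5.55 and 5.48 on the others of that group, and its call was lost in 9 of the fits that left out 1 array. Without replicate 13 its contrast was 0.75 and passed, and the part of those markers in Hk2 was not tested. Apom, an HDL apolipoprotein, was at -0.93 ± 0.21, C8g, a complement subunit, at -1.06 ± 0.16, Gnmt, the glycine methyltransferase, at -0.68 ± 0.12, and Gstt2, a glutathione transferase, at -1.17 ± 0.20. Cpt2, the inner carnitine palmitoyltransferase of mitochondria, was at -0.66 ± 0.17 (adjusted p = 0.0299) and was at -0.36 after quantile normalization (adjusted p = 0.265). Apom was at -0.47 given the array spread (adjusted p = 0.0948). Hk2 (adjusted p = 0.0656) also missed the threshold after quantile normalization, and Cpt2 missed it in 6 of the fits that left out 1 array.

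The larger class, in which the B6 low-fat group stood apart, had its largest contrasts in Apoa4, Hsd17b10, Inmt, Psen2 and Galt, and 17 of its 185 genes were of oxidative phosphorylation. Of 65 measured genes of oxidative phosphorylation 23 (35.4%, against 4.63% of all genes) were more negative in B6 and none more positive. This shape was that of 17 of the 23. How many of the 65 passed in other settings was not counted. The median contrast of the 65 genes was -0.47, against 0.009 over all genes. Their median diet difference, taken separately in each strain, was -0.52 in B6 and -0.03 in 129S6. By complex, 13 of 27 subunits of complex I passed, 2 of 4 of complex II, 3 of 8 of complex III, 5 of 12 of complex V and none of the 12 genes of complex IV. The median contrast of the complex IV genes was -0.18, and whether it differs from that of the other complexes was not tested.

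Sdhc, the membrane anchor subunit of succinate dehydrogenase, was at 10.59, 10.52, 10.45 and 10.70 in B6 on low fat, above every other array. It was at 9.60, 9.62, 9.53 and 9.82 in B6 on high fat, 9.92, 9.83, 9.78 and 9.84 in 129S6 on low fat and 9.69, 9.94, 10.02 and 9.79 on high fat. These 3 groups overlapped. The contrast was -0.94 ± 0.13 (adjusted p = 0.000605).

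Uqcr11, a small subunit of complex III, had the same pattern, at 10.24, 10.31, 10.48 and 10.40 in B6 on low fat and 9.47, 9.59, 9.61 and 9.20 on high fat, with 9.60, 9.47, 9.32 and 9.52 in 129S6 on low fat and 9.49, 9.65, 9.77 and 9.48 on high fat. The contrast was -1.01 ± 0.15 (adjusted p = 0.00125). Sdhb, the iron-sulphur subunit, differed by -0.94 ± 0.11, and the ATP synthase subunit Atp5o by -0.69 ± 0.12 (-0.40 and adjusted p = 0.0571 after quantile normalization). With the random block Sdhb missed the threshold (adjusted p = 0.0527), as did Sdhc (adjusted p = 0.0747) and Uqcr11 (adjusted p = 0.104).

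Enzymes of other pathways shared the shape. Hsd17b10, a mitochondrial dehydrogenase of isoleucine and steroid breakdown, was at 10.49, 10.48, 10.39 and 10.47 in B6 on low fat and 9.32, 9.69, 9.40 and 9.41 on high fat. Levels in 129S6 were 9.47, 9.09, 8.87 and 9.10 on low fat and 9.51, 9.48, 9.80 and 9.51 on high fat. The B6 groups were more than 0.5 log2 units apart and the 129S6 groups did not overlap either, in the other direction. The contrast was -1.45 ± 0.16 (adjusted p = 0.000186), and -1.28 with the random block, where it also passed. In 129S6 alone the rise of 0.45 log2 units did not pass (adjusted p = 0.241).

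Inmt, an amine methyltransferase, was at 11.09, 11.26, 10.94 and 11.05 in B6 on low fat, and between 9.27 and 10.09 on the other arrays. The contrast was -1.36 ± 0.24 (adjusted p = 0.00353). Gstm6, a glutathione transferase, was at 9.65, 9.79, 9.63 and 9.75 in B6 on low fat, 8.90, 9.01, 8.92 and 8.75 on high fat, 8.21, 8.19, 8.38 and 8.30 in 129S6 on low fat and 8.43, 8.63, 8.52 and 8.33 on high fat. Its strain gap closed from 1.44 log2 units on low fat to 0.41 on high fat, and no B6 array reached the 129S6 range. The contrast was -1.02 ± 0.12 (adjusted p = 0.000229), and the other Gstm6 probe set was at -1.26 ± 0.30 (adjusted p = 0.022).

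More positive contrasts were found for 10 genes of this shape, and the largest was that of Apoa4. Apoa4, an apolipoprotein of chylomicrons and HDL that liver makes when loaded with fat, was at 8.95, 9.78, 9.42 and 10.18 in B6 on low fat and at 11.86, 11.91, 12.08 and 12.10 on high fat. Its 129S6 values were 11.94, 11.48, 11.63 and 11.50 on low fat and at 12.37, 12.41, 12.58 and 12.43 on high fat. The groups did not overlap within either strain, and B6 on low fat was below all others. The contrast was 1.59 ± 0.26 (adjusted p = 0.0025), from a rise of 2.41 ± 0.18 log2 units in B6 and a difference of 0.81 ± 0.18 in 129S6 that did not pass (adjusted p = 0.12). Further examples were the peroxisomal and mitochondrial enzymes Gstk1 (-1.05 ± 0.18) and Echs1 (-0.85 ± 0.11), the proteasome subunit Psmb6 (-0.77 ± 0.13) and the translocon subunit Sec61b (-1.01 ± 0.20). Ssr1, a signal sequence receptor subunit, was more positive at 1.02 ± 0.26, but 0.01 ± 0.18 by a second probe set, and it missed the threshold in 9 of the fits that left out 1 array.

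**Figure D3:**
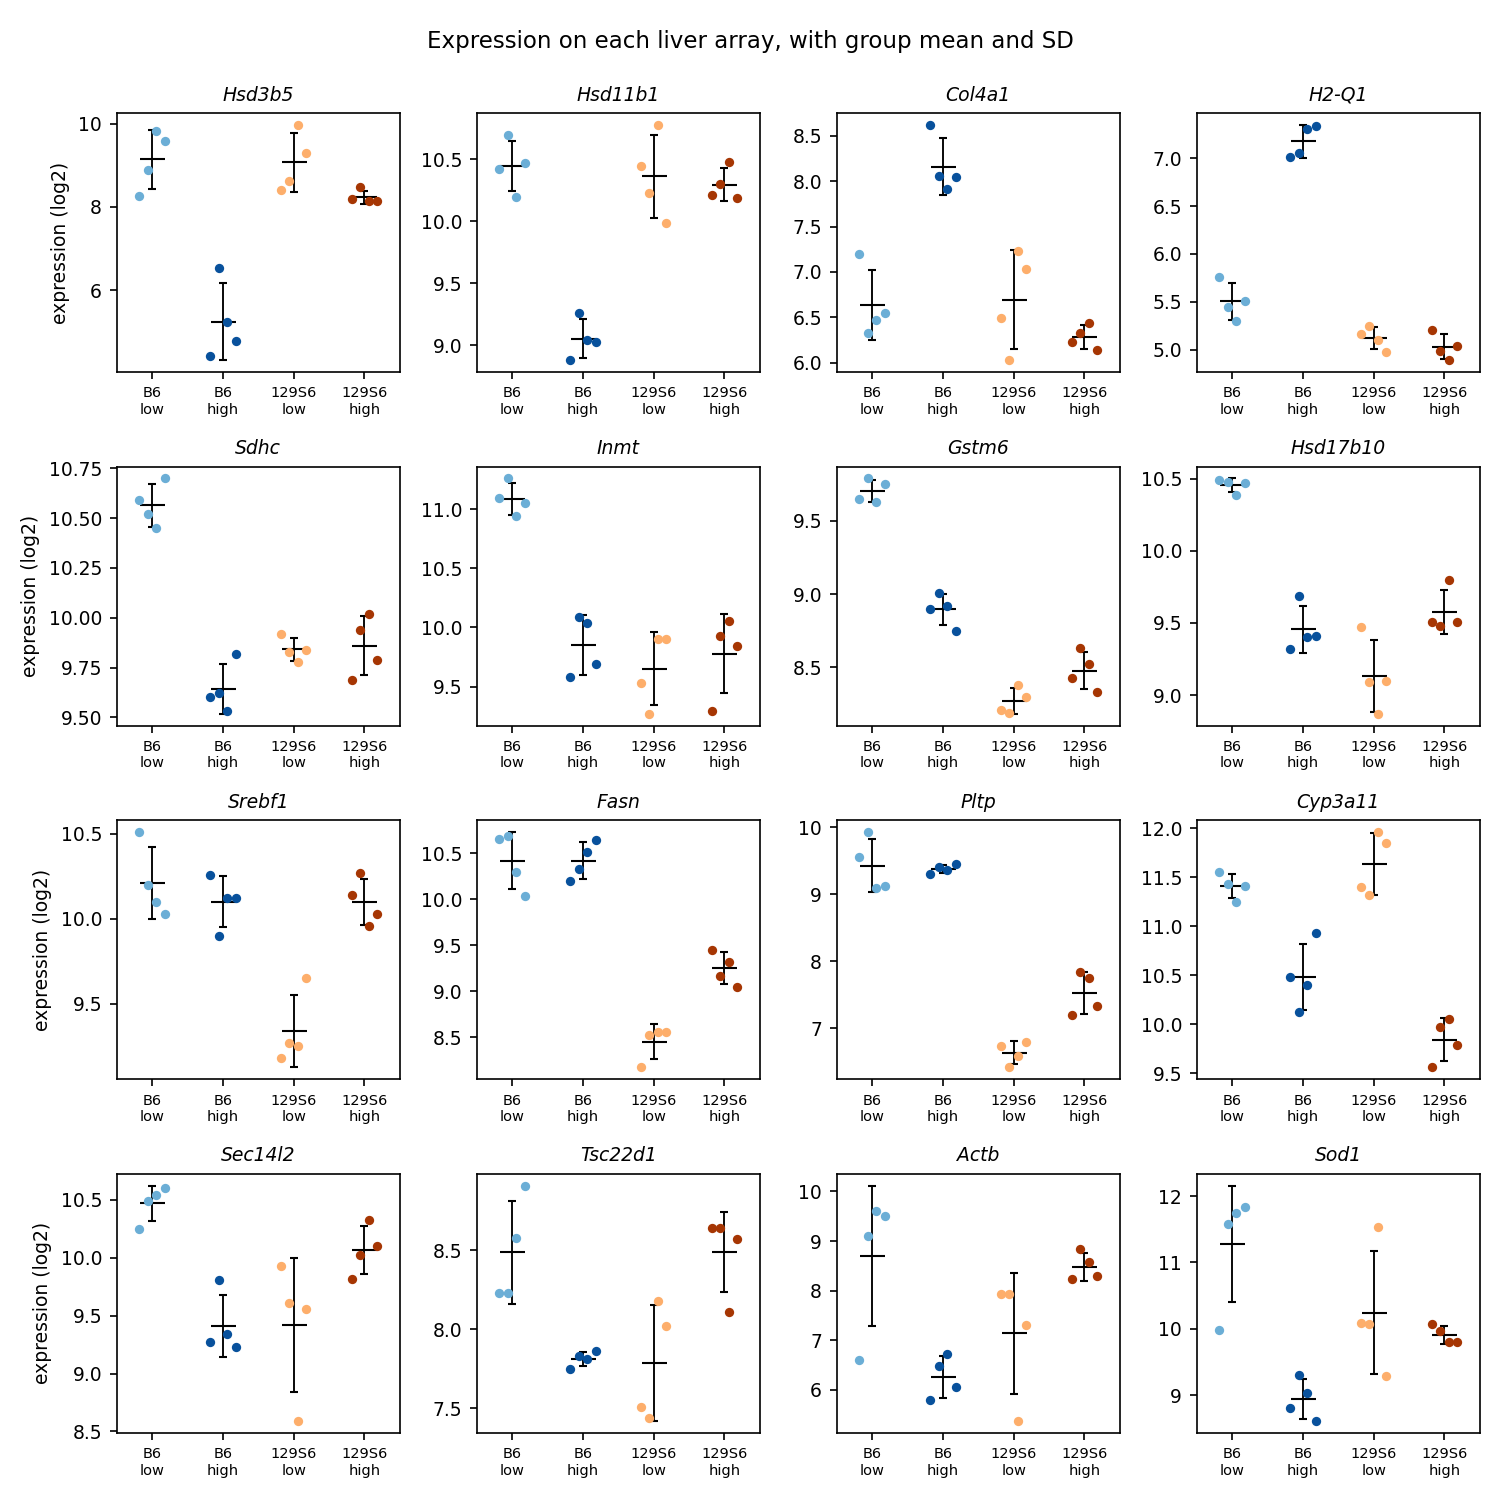
Expression on each liver array (log2 units, vertical, with a range of its own in each panel) of 16 genes, in B6 and 129S6 on low and high fat; points are arrays, the horizontal tick is the group mean and the bar 1 SD (n = 4). The first row shows genes with B6 on high fat apart, the second B6 on low fat apart, the third genes whose larger change was in 129S6, and the last genes with opposite changes or with single arrays far from their group.

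The 6 genes that responded mainly in 129S6 were Srebf1, Fasn, Pltp, Cyp2b10, Pmm1 and Rasip1. Srebf1, the transcription factor SREBP-1 that drives fatty acid synthesis, was at 10.51, 10.20, 10.10 and 10.03 in B6 on low fat and at 10.26, 9.90, 10.12 and 10.12 on high fat. The corresponding 129S6 values were 9.18, 9.27, 9.25 and 9.65 on low fat and at 10.14, 10.27, 9.96 and 10.03 on high fat. The 129S6 low-fat arrays were below all others and the remaining groups overlapped. The contrast was -0.87 ± 0.18 (adjusted p = 0.00777), from a rise of 0.76 ± 0.12 in 129S6 (adjusted p = 0.0232) and -0.11 ± 0.12 in B6. After quantile normalization the contrast was -0.61 (adjusted p = 0.079).

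Fasn, the fatty acid synthase, was at 10.66, 10.69, 10.30 and 10.04 in B6 on low fat and 10.20, 10.33, 10.51 and 10.65 on high fat, against 8.17, 8.52, 8.55 and 8.56 and then 9.45, 9.17, 9.32 and 9.05 in 129S6. The strains did not overlap on either diet, and the gap narrowed from 1.97 to 1.17 log2 units. The contrast was -0.80 ± 0.21 (adjusted p = 0.033), and -0.49 after quantile normalization (adjusted p = 0.257). The call was lost in 9 of the fits that left out 1 array.

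Pltp, the phospholipid transfer protein of plasma, was at 9.55, 9.93, 9.09 and 9.13 in B6 on low fat and 9.30, 9.41, 9.36 and 9.45 on high fat, against 6.74, 6.42, 6.59 and 6.80 and then 7.20, 7.84, 7.76 and 7.33 in 129S6. The gap was 2.79 log2 units on low fat and 1.85 on high fat, and the contrast -0.94 ± 0.24 (adjusted p = 0.0318). Taking the array spread as a covariate moved it to -0.67 (adjusted p = 0.139), and 6 of the fits that left out 1 array lost the call.

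Scd1, the stearoyl-CoA desaturase, was at 12.28, 12.52, 12.27 and 12.18 in B6 on low fat and 13.02, 12.56, 13.06 and 13.03 on high fat, and at 10.31, 9.78, 10.96 and 10.79 and then 11.57, 11.62, 12.12 and 11.32 in 129S6. The high-fat arrays lay above the low-fat arrays in both strains, but the contrast of -0.60 ± 0.30 did not pass (adjusted p = 0.272). Its other probe sets gave -1.04 ± 0.31 and -0.54 ± 0.27. Given the spread of each array as a covariate, the contrast came to 0.04. It passed with array weights (-0.68, adjusted p = 0.0493) and with the 129S6 low-fat arrays of run L2 only (-1.01, adjusted p = 0.0174). Acly at -0.13 ± 0.24 and Elovl6 at -0.30 ± 0.31, further enzymes of fatty acid synthesis, did not pass, and the other Elovl6 probe set was at 0.64 ± 0.31 (adjusted p = 0.264).

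Cyp2b10, a target of CAR, fell in both strains and further in 129S6. It was at 8.14, 8.31, 8.07 and 7.90 in B6 on low fat and 7.32, 7.40, 7.27 and 7.34 on high fat, and at 8.88, 8.90, 9.00 and 8.74 and then 7.25, 7.17, 7.07 and 7.82 in 129S6. The low-fat groups were apart and the high-fat groups shared a range. The contrast was 0.78 ± 0.19 (adjusted p = 0.0209), and 0.55 given the array spread as a covariate (adjusted p = 0.104), with the call lost in 3 of the fits that left out 1 array.

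Cyp3a11, the main CYP3A enzyme of mouse liver, also fell in both strains, from 11.55, 11.43, 11.25 and 11.41 to 10.48, 10.12, 10.40 and 10.93 in B6 and from 11.40, 11.32, 11.96 and 11.85 to 9.56, 9.97, 10.05 and 9.79 in 129S6. The strains overlapped on low fat and the highest 129S6 array was below the lowest B6 array on high fat. The contrast was 0.86 ± 0.24 (adjusted p = 0.0441). It was the only one of the 453 genes assigned to a shared direction, and its contrast lost the threshold with an intensity trend and robust prior (adjusted p = 0.0527) and in 11 of the fits that left out 1 array. Pmm1, a phosphomannomutase, at -0.51 ± 0.13, and Rasip1, an endothelial protein, at -0.46 ± 0.13, were the remaining 2 of the 6 genes. They lost the call in 11 and 12 of the fits that left out 1 array, and Rasip1 also with all probe sets (adjusted p = 0.0528). With the 129S6 low-fat arrays of run L2 only, Pmm1 was at -0.33 and did not pass.

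Genes whose strains crossed included a lipid-binding protein and several regulators. Sec14l2, a lipid-binding protein that stimulates squalene epoxidation, was at 10.25, 10.49, 10.54 and 10.60 in B6 on low fat and 9.27, 9.81, 9.34 and 9.23 on high fat. The 129S6 arrays were at 9.93, 9.61, 8.59 and 9.56 on low fat and 9.82, 10.02, 10.33 and 10.10 on high fat. The arrays of the strains did not overlap on either diet, B6 above on low fat and 129S6 above on high fat. On high fat the highest B6 array was at 9.81 and the lowest 129S6 array at 9.82. The high-fat difference between the strains, -0.66, did not pass (adjusted p = 0.095). The contrast was -1.71 ± 0.30 (adjusted p = 0.00353), and the other Sec14l2 probe set was at -1.19 ± 0.28 (adjusted p = 0.0234). Replicate 11 was the lowest 129S6 low-fat array.

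Tsc22d1, a leucine zipper protein, was at 8.23, 8.23, 8.58 and 8.91 in B6 on low fat and 7.75, 7.83, 7.81 and 7.86 on high fat, and at 7.51, 7.44, 8.18 and 8.02 and then 8.64, 8.64, 8.11 and 8.57 in 129S6. Each strain ended on high fat close to where the other had been on low fat. The contrast was -1.38 ± 0.25 (adjusted p = 0.00372). Pptc7, a mitochondrial phosphatase, crossed the other way, from 7.60, 7.76, 7.39 and 7.51 to 8.27, 8.33, 8.16 and 7.69 in B6 and from 7.99, 7.96, 8.79 and 8.40 to 7.37, 7.57, 7.98 and 7.82 in 129S6, with overlapping groups in both strains and a contrast of 1.15 ± 0.26 (adjusted p = 0.0154). Fpgs, the folate polyglutamate synthase, at -1.44 ± 0.31, and Tst, thiosulphate sulphurtransferase, at -1.29 ± 0.25, crossed as Sec14l2 did.

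Mid1ip1, a partner of acetyl-CoA carboxylase in fatty acid synthesis, was at 9.02, 8.91, 8.35 and 8.84 in B6 on low fat and 7.79, 8.11, 7.94 and 8.36 on high fat. Levels in 129S6 were 6.92, 7.04, 7.74 and 7.54 on low fat and 8.11, 8.28, 8.07 and 7.87 on high fat. The strains were far apart on low fat and shared a range on high fat. The contrast was -1.51 ± 0.26 (adjusted p = 0.00279) and kept its call in every setting. The other Mid1ip1 probe set was at 0.10 ± 0.26 (adjusted p = 0.865), with a diet difference of 0.62 in B6 and 0.53 in 129S6.

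The order of the strains also turned for 122 genes that responded mainly in B6. Hsd17b2, which inactivates sex steroids, was at 8.38, 8.50, 8.47 and 8.54 in B6 on low fat and 7.09, 7.14, 7.21 and 7.11 on high fat, with 7.88, 7.61, 8.16 and 8.13 and then 8.16, 8.15, 7.96 and 7.94 in 129S6. B6 lay above the 129S6 range on low fat and below it on high fat. The contrast was -1.44 ± 0.15 (adjusted p = 0.000132), and -1.67 with the random block, where it also passed.

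Hgfac, whose promoter was given with that of Igfals, was at 10.35, 10.68, 10.30 and 10.69 in B6 on low fat and 9.34, 9.55, 9.34 and 9.24 on high fat. Its 129S6 values were 10.01, 9.64, 9.27 and 10.04 on low fat and 9.89, 10.29, 10.15 and 9.95 on high fat. The order of the strains turned, and the contrast was -1.47 ± 0.22 (adjusted p = 0.00144).

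Alas2, the heme synthesis enzyme of red cell precursors, was at 9.59, 9.87, 9.82 and 9.62 in B6 on low fat and 8.31, 8.90, 8.49 and 8.39 on high fat. The corresponding 129S6 values were 9.22, 9.23, 8.33 and 9.15 on low fat, replicate 11 being the low one, and 9.26, 9.32, 9.35 and 9.04 on high fat. The contrast was -1.46 ± 0.25 (adjusted p = 0.00279). Alas2 is 1 of 7 measured erythroid markers, whose mean, Alas2 included, was 7.31 to 7.51 in B6 on low fat and 7.04 to 7.08 on high fat. Of the others Hba-a1 had a contrast of -1.12 (adjusted p = 0.0541) and Klf1 one of -0.21 (adjusted p = 0.337). Slc4a1 was at -0.12, Car1 at -0.11, Car2 at 0.04 and Epb42 at 0.19, and none of these passed. The part of blood cells in the Alas2 values was not tested.

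A few large contrasts belonged to genes whose arrays disagreed within a group. Actb, cytoplasmic actin, had the largest contrast in size at -3.78 ± 0.83 (adjusted p = 0.013). It was at 6.60, 9.10, 9.60 and 9.50 in B6 on low fat and 5.79, 6.48, 6.73 and 6.05 on high fat, and at 7.93, 7.94, 5.37 and 7.31 and then 8.23, 8.84, 8.57 and 8.29 in 129S6. B6 low-fat replicate 1 and 129S6 low-fat replicate 11, the arrays with the highest Gapdh 3' signal, were the lowest of their groups. The other Actb probe set was at -2.27 ± 0.99 (adjusted p = 0.211).

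Sod1, the cytosolic superoxide dismutase, was at 9.98, 11.58, 11.74 and 11.83 in B6 on low fat and 8.80, 9.31, 9.03 and 8.61 on high fat. The 129S6 arrays were at 10.09, 10.07, 11.53 and 9.29 on low fat and 10.07, 9.97, 9.80 and 9.80 on high fat. The same pair of arrays departed from their groups, replicate 1 downwards and replicate 11 upwards. The contrast of -2.01 ± 0.57 was near the threshold (adjusted p = 0.0472) and lost it in 14 of the fits that left out 1 array.

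Ppara, the nuclear receptor of fatty acid oxidation, showed the same arrays apart, at 8.45, 6.95, 6.17 and 6.21 in B6 on low fat and 8.88, 9.27, 8.97 and 9.00 on high fat, with 8.61, 8.02, 6.59 and 8.25 and then 8.28, 8.44, 8.94 and 8.39 in 129S6. It rose in B6 by 2.09 ± 0.43 log2 units, but its contrast of 1.44 ± 0.61 did not pass (adjusted p = 0.184). Without 129S6 low-fat replicate 11 it was 1.87 and passed (adjusted p = 0.0279), as it did without B6 low-fat replicate 1 (1.94).

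Cd99, a cell adhesion protein, was at 6.34, 6.20, 6.59 and 6.27 in B6 on low fat and 8.94, 8.21, 8.36 and 8.65 on high fat, with 7.09, 7.22, 5.69 and 7.45 and then 7.54, 7.69, 7.61 and 7.39 in 129S6. B6 moved from below 129S6, replicate 11 excepted, to above it. The contrast was 1.5 ± 0.38 (adjusted p = 0.0318). It missed the threshold in 10 of the fits that left out 1 array, with 1.37 without B6 high-fat replicate 13 (adjusted p = 0.0613).

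The remaining large positive contrasts were those of Tceal9 (1.28 ± 0.33, but -0.35 ± 0.19 by a second probe set), the mRNA editing enzyme Apobec1 (1.22 ± 0.35), the glucocorticoid-induced chaperone Fkbp5 (1.18 ± 0.31), the scaffold protein Iqgap2 (1.14 ± 0.27), the motor protein Kif5b (1.09 ± 0.30), Car8 (1.00 ± 0.24) and the corepressor Nrip1 (0.92 ± 0.20). Apobec1 and Fkbp5 moved in opposite directions in the strains, with neither diet difference past the threshold, and their contrasts missed the threshold in 14 and 10 of the fits that left out 1 array. Kif5b missed it in 13 of these fits and Tceal9 in 9. Kif5b also missed it after quantile normalization (adjusted p = 0.0666) and given the array spread (adjusted p = 0.0899). Psen2, a presenilin, at -1.29 ± 0.26, and Galt, of galactose breakdown, at -1.25 ± 0.22, had the B6 low-fat group apart. A dimmer Galt probe set gave -0.14 ± 0.16. Given the array spread, Nrip1 (adjusted p = 0.0537) and Psen2 (adjusted p = 0.0575) missed the threshold.

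The 21 gene lists were described by counts, against the 5.49% of all genes past the threshold. Fatty acid synthesis had 3 of 16 genes more negative in B6, Mid1ip1, Srebf1 and Fasn, and a median contrast of -0.33. Its median diet difference, taken separately in each strain, was -0.04 in B6 and 0.45 in 129S6. Cholesterol synthesis and uptake had 1 of 14, Ebp, a sterol isomerase (-0.93 ± 0.16), and a median of -0.08. Ppara and fatty acid oxidation had 3 of 26, Echs1, Hadh (-0.86 ± 0.17) and Cpt2, and the lowest median of all lists at -0.55. Of 14 lipid droplet genes 1 was more positive, Plin4, and 2 more negative, Pltp and G0s2, an inhibitor of triglyceride lipase (-1.15 ± 0.33, adjusted p = 0.0485). Of 16 apolipoprotein and lipoprotein receptor genes Apoa4 was more positive, while Apom, Pltp and the HDL receptor Scarb1 (-1.03 ± 0.28, adjusted p = 0.0422) were more negative. G0s2 lost its call in 14 of the fits that left out 1 array and after quantile normalization (adjusted p = 0.0965), and Scarb1 in 12 and after quantile normalization (adjusted p = 0.15).

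Among lists of protein synthesis and breakdown, 3 of 31 cytosolic ribosomal protein genes passed, Rpl8 (-0.61 ± 0.14), Rpl41 (-0.56 ± 0.13) and Rplp0 (-0.59 ± 0.14), with a median of -0.23. Rpl8 and Rplp0 were at -0.29 and -0.32 after quantile normalization and did not pass. Of 39 proteasome genes 5 were more negative, among them Psmb6, Psmb1 (-0.77 ± 0.14, but 0.32 ± 0.13 by a second probe set), Psmb3 (-0.67 ± 0.16) and Psme3 (-0.64 ± 0.17), and the median was -0.25. Of 36 genes of chaperones and the endoplasmic reticulum Ssr1 was more positive and Sec61b, the stress factor Atf4 (-0.59 ± 0.14) and Manf (-0.88 ± 0.24) more negative. Of 25 antioxidant genes Gsr, glutathione reductase, was more positive (0.76 ± 0.19), and Txn2 (-0.69 ± 0.14), Txnrd2 (-0.70 ± 0.20) and Sod1 were more negative. After quantile normalization Psmb3 was at -0.37 (adjusted p = 0.207), Atf4 at -0.33 (adjusted p = 0.285) and Txn2 at -0.40 (adjusted p = 0.204), and none of the 3 passed. Leaving out 1 array lost the call of Manf in 12 fits, of Txnrd2 in 11, of Psme3 in 7, of Gsr in 6, and of Atf4 and Rplp0 in 4 each.

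Drug metabolism had 7 of 48 genes more negative and 2, Cyp2b10 and Cyp3a11, more positive, with a median of -0.16. Steroid and glucocorticoid metabolism had 4 of 15 more negative, Hsd17b2, Hsd17b10, Hsd11b1 and Hsd3b5, and Fkbp5 more positive. Of 17 male-biased liver genes Igfals and Hsd3b5 passed, and of 14 bile acid genes the fatty acid and bile acid CoA ligase Slc27a5 (-0.94 ± 0.14) and the bile acid importer Slc10a1 (-0.73 ± 0.19, but -0.31 ± 0.27 by a second probe set). Of 31 genes of amino acid metabolism Gnmt, Bckdha (-1.04 ± 0.24) and Bcat2 (-0.70 ± 0.18), the last 2 of branched-chain breakdown, were more negative. Of 33 acute phase and complement genes C8g and Mbl1 (-0.93 ± 0.25) were. Slc10a1 was at -0.42 after quantile normalization (adjusted p = 0.234) and Mbl1 at -0.40 given the array spread (adjusted p = 0.258). Leaving out 1 array lost the call of Mbl1 in 11 fits, of Slc10a1 in 9 and of Bcat2 in 8. None of the 26 glucose metabolism genes and none of the 26 interferon-induced genes passed limma's threshold, while 4 and 6 of them had an unadjusted p under 0.05.

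Extracellular matrix genes had the highest median, 0.22, with 12 of 46 contrasts below 0. Col4a1 was more positive and Col18a1, the source of endostatin, more negative (-0.60 ± 0.14, with other probe sets from -0.57 to -0.03). Of 44 cytoskeletal genes Anxa2 was more positive and Actb and Tuba1a (-0.61 ± 0.15, but 0.51 ± 0.17 by a second probe set) were more negative. After quantile normalization Col18a1 was at -0.30 (adjusted p = 0.166) and Tuba1a at -0.32 (adjusted p = 0.314), and Tuba1a lost its call in 9 of the fits that left out 1 array. Cidea, a lipid droplet protein with a strain gap of 3.51 log2 units on low fat and 4.21 on high fat, had a contrast of 0.70 ± 0.29 that did not pass (adjusted p = 0.178) except with array weights (adjusted p = 0.044).

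**Figure D4:**
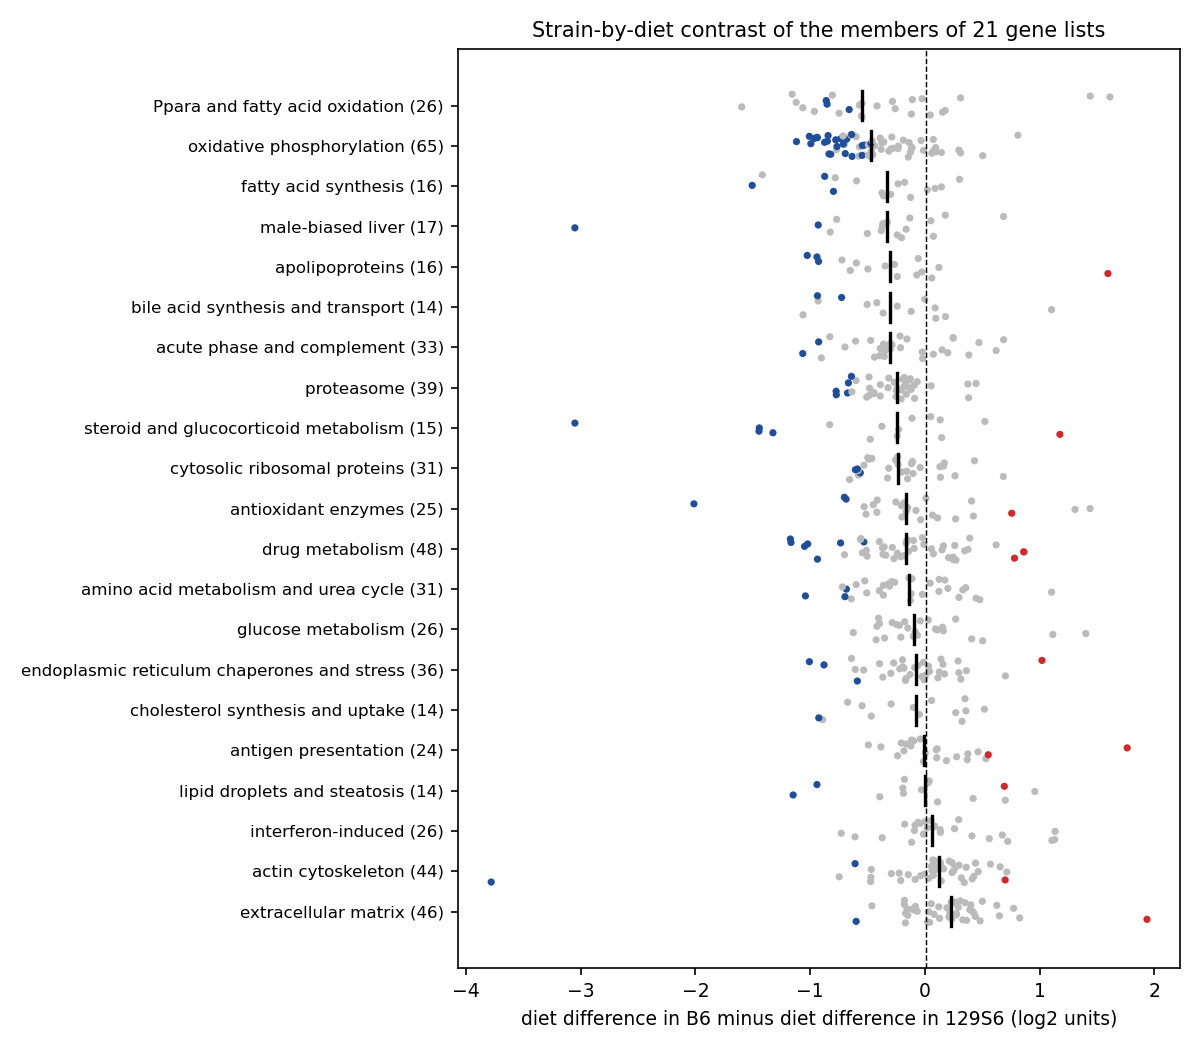
Each point is a measured gene of 21 lists, placed by its contrast (as defined above, log2 units); red and blue points passed the threshold, grey ones did not, black ticks are list medians and the dashed line is the median of all genes, 0.009. Oxidative phosphorylation has 23 blue points and no red one, and the list medians run from -0.55 to 0.22.

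The same contrast was set beside that of the other tissues, each fitted alone. In muscle, with 15 arrays, 263 of 8251 genes passed (3.19%), and in epididymal fat, with 14 arrays, none did (0%), while 232 fat genes had an unadjusted p under 0.05 by limma. Of the liver's 453 genes 67 also passed in muscle, 14.8% of the liver genes and 25.5% of the muscle genes, and 65 of the 67 had the same sign. Of these 65 all but Gja1 were more negative in both tissues. The 263 muscle genes were not counted by direction, so no share of like signs by chance stands beside this. Uqcr11 was at -3.08 in muscle, Sdhb at -3.17, Gstk1 at -1.98, Pltp at -1.66 and Gja1 at 1.70. Anxa2, more positive in liver, was at -1.92 in muscle. Among the 382 genes more negative in liver 292 (76.4%) were below 0 in muscle, against 36.6% of all genes, with a median of -0.77 in muscle and 0.21 in fat.

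Array quality moved with the groups in both tissues. The SD of the B6 high-fat muscle arrays was 1.58 to 1.70 log2 units against 1.80 to 1.87 on low fat, and the muscle Gapdh 3' minus 5' signal was 1.19 to 3.36 against 0.35 to 0.807. In the 129S6 muscle arrays the SD was 1.56 to 1.85 on low fat and 1.79 to 1.84 on high fat. Their Gapdh signal was 0.291 to 2.56 and 1.27 to 4.43. In liver the B6 high-fat arrays likewise had a smaller spread than the low-fat arrays. Their Gapdh signal went the other way from muscle, at 0.225 to 0.346 on high fat against 0.824 to 1.69 on low fat. The part of array quality in the shared genes was not tested, and it was not stated whether the tissues came from the same mice. Hsd3b5 (-0.14), H2-Q1 (0.37), Hsd11b1 (0.21) and Igfals (-0.17) did not pass in muscle. The difference between tissues was not tested.

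**Figure D5:**
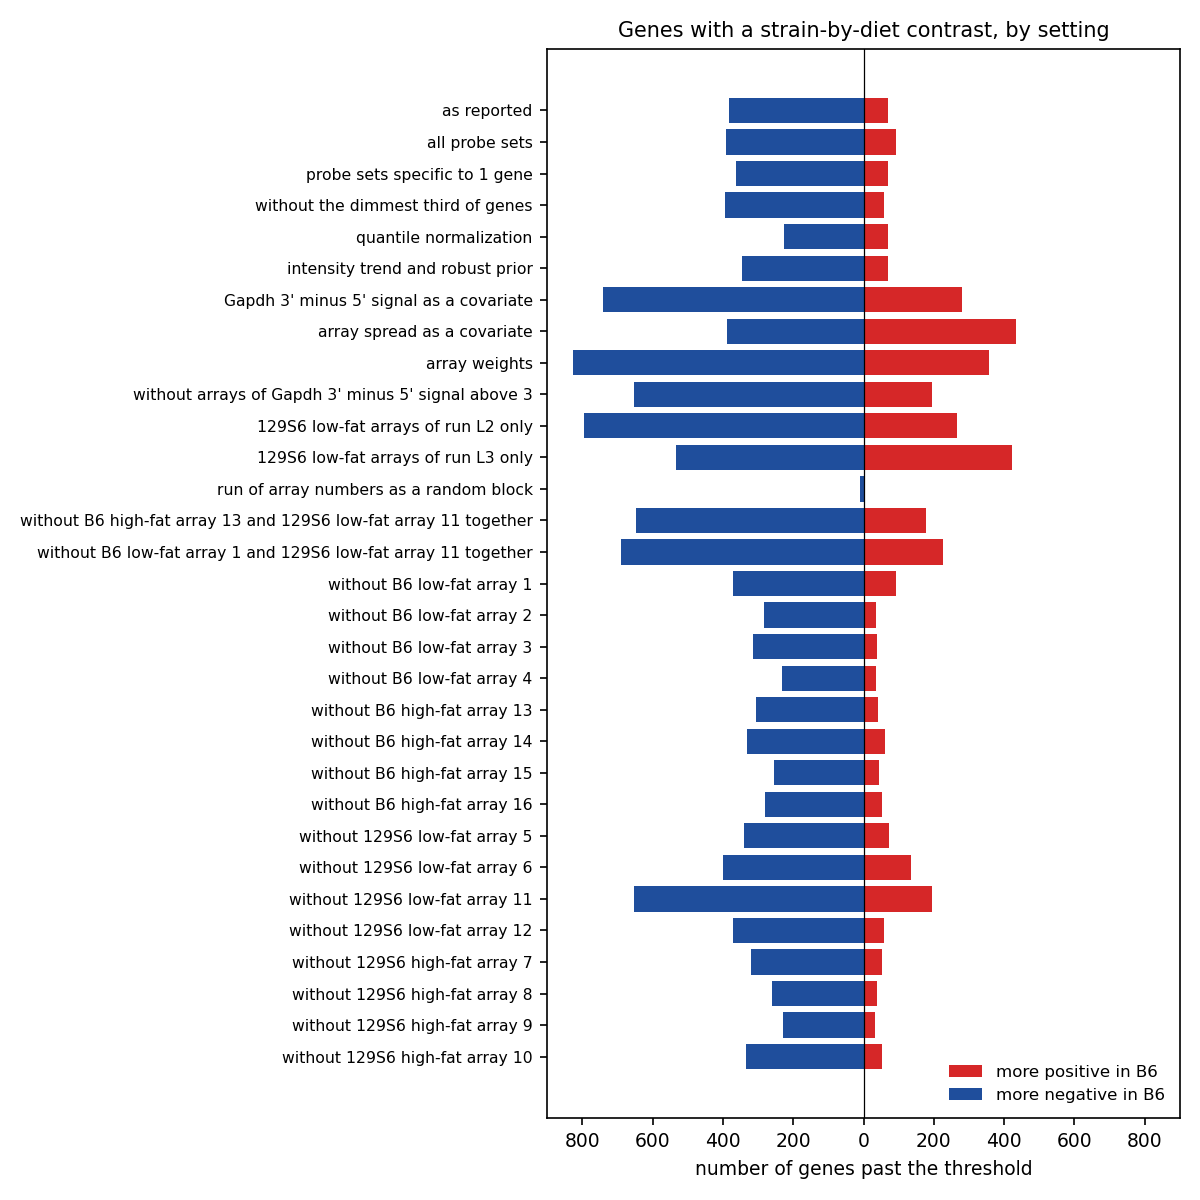
Horizontal bars count the genes past the threshold in each setting, those more positive in B6 to the right and those more negative to the left. The reported fit has 71 and 382, the run of array numbers as a random block 1 and 10, and the array spread as a covariate 434 and 388.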

How the data were processed

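Expression was measured on 1-colour Affymetrix arrays. The deposited values are on a log2 scale and were made by the authors with RMA, per the submitters' processing notes, which name no version. RMA subtracts background, equalises the distributions of probe intensities between arrays and then summarises probes into probe sets. The spread of the probe set values still differed between these arrays. The arrays hold 12488 probe sets. A single gene symbol was listed for 10833, more than 1 for 396 and no symbol for 1193, and 66 are control probe sets. Through Entrez ID 10817 were matched to RefSeq. The probe set of highest liver mean stood for each of 8251 genes. A mean for each of the 4 groups was fitted to the 16 liver arrays with limma 3.58.1 in R 4.3.3 (moderated variances, two-sided tests, Benjamini-Hochberg adjustment over all genes, threshold 0.05).

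Shapes used a ratio of 2 between the differences of the fitted means. Genes were named from those past the threshold, as the 15 largest contrasts each way, the 5 largest of each shape and as many as 4 genes per list by adjusted p. A fixed set was named whether or not it passed. Other probe sets above 4.5 log2 units are given where they do not pass in the same direction, with p-values adjusted over all probe sets. Members and lists were chosen with earlier results of these data known. The alternatives tested every probe set, kept 1-gene probe sets only, dropped dim genes, or used quantile normalization, an intensity trend, array weights, the Gapdh 3' minus 5' signal or the array spread as a covariate, 129S6 low-fat arrays of 1 run, the run as a block, and leaving arrays out. The fit was tested on simulated data. Figures used matplotlib 3.10.9 in Python 3.11.15. The number of arrays limits the precision.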

Additional observations from a re-analysis of the deposited data

Results flagged for a closer look

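The diet difference itself differed between the strains by limma's test for 28 genes described array by array. The contrasts more positive in B6 were those of Col4a1 (1.94), H2-Q1 (1.76), Apoa4 (1.59), Cd99 (1.5), Gja1 (1.29), Pptc7 (1.15), Cyp3a11 (0.86) and Cyp2b10 (0.78). The contrasts beyond -1.40 were those of Actb (-3.78), Hsd3b5 (-3.05), Sod1 (-2.01), Sec14l2 (-1.71), Mid1ip1 (-1.51), Hgfac (-1.47), Alas2 (-1.46), Hsd17b10 (-1.45) and Hsd17b2 (-1.44). Smaller negative contrasts were those of Tsc22d1 (-1.38), Inmt (-1.36), Hsd11b1 (-1.32), Nr1i3 (-1.17), Gstm6 (-1.02), Uqcr11 (-1.01), Sdhc (-0.94), Pltp (-0.94), Igfals (-0.93), Srebf1 (-0.87) and Fasn (-0.80).

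Of 172 groups of 4 arrays checked by Dixon's test, 15 had an array far from the other 3, where about 1 in 20, or 8.6, would be so by chance. In 129S6 on low fat, replicate 11 stood out in the Gapdh 3' minus 5' signal (3.26), the same measure of Actb (2.12) and Alas2 (8.33), replicate 5 in Fasn (8.17) and replicate 6 in the mean of the cholangiocyte markers (5.29). In B6 on low fat, replicate 1 was low in Actb (6.60) and Sod1 (9.98), and replicate 3 in Gja1 (4.97) and Hsd17b10 (10.39). In B6 on high fat, replicate 13 was high in the macrophage mean (8.37) and the skeletal muscle mean (6.57), and replicate 14 low in Scd1 (12.56). In 129S6 on high fat, replicate 8 was high in Hsd3b5 (8.47), and replicate 9 high in Hsd17b10 (9.80) and low in Tsc22d1 (8.11).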

How the results depend on the processing

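The reported 453 genes (71 more positive, 382 more negative in B6) became 298 after quantile normalization (227 more negative), 1022 with the Gapdh 3' minus 5' signal as a covariate (281 and 741), 822 with the array spread as a covariate (434 more positive) and 1185 with array weights (357 and 828). Without arrays of Gapdh 3' minus 5' signal above 3 there were 849 (196 and 653), with 129S6 low-fat arrays of run L2 only 1060 (265 and 795), with those of run L3 only 957 (422 more positive), and with the run as a random block 11 (1 and 10). In 2 fits chosen after seeing the data, there were 824 (177 and 647) without B6 high-fat replicate 13 and 129S6 low-fat replicate 11, and 916 (227 and 689) without B6 low-fat replicate 1 and 129S6 low-fat replicate 11. Leaving out 1 array gave 263 to 849 genes, 34 to 196 more positive and 229 to 653 more negative. All probe sets, 1-gene probe sets, dropping dim genes, and an intensity trend stayed within 1.5 times of the reported counts.

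At a shape ratio of 3 the B6 high-fat group stood apart for 25 genes and the B6 low-fat group for 113. After quantile normalization the B6 low-fat group stood apart for 89 of 298 genes (29.9%, against 40.8% as reported), and 221 responded mainly in B6. With the Gapdh covariate these counts were 415 and 866, and 151 for the B6 high-fat group. With the spread covariate the B6 low-fat group stood apart for 211 of 822 genes (25.7%), and 635 responded mainly in B6. Leaving out 1 array gave 30 to 91 genes for B6 high fat, 103 to 443 for B6 low fat and 217 to 737 responding mainly in B6. Of 85 named contrasts, 74 lost the threshold under the random block, 23 after quantile normalization and 26 with the spread covariate. Scd1, not past the threshold, turned to 0.04 with the spread covariate and passed at -0.68 with array weights and at -1.01 with run L2 only. Acly, also not past it, turned to 0.15 after quantile normalization, 0.15 with the spread covariate and 0.12 with run L3 only, and ranged from -0.27 to 0.03 when 1 array was left out. The cause was not tested. No paired analysis was possible because the 4 liver groups share no replicate number. The fixed run block could not be fitted. The few arrays limit precision.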

Other observations

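Mitochondrial ribosomal proteins, grouped by name after their values were seen, lay beside the genes of oxidative phosphorylation. Of 61 measured genes named Mrpl or Mrps, 19 (31.1%, against 5.49% of all genes) were more negative in B6 and none more positive. The median contrast of the 61 genes was -0.42, and 54 contrasts were below 0. Their median diet difference, taken separately in each strain, was -0.45 in B6 and 0.01 in 129S6. Mrps10 (-0.94 ± 0.12), Mrps24 (-0.94 ± 0.15) and Mrps12 (-0.86 ± 0.11) passed in every setting in which they were tested, the random block of array runs included.

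The other genes that passed in every setting and are not described above were also chosen after their values were seen. They were Car14, a carbonic anhydrase (-1.20 ± 0.13), Micos13, a subunit of the complex that shapes mitochondrial cristae (-1.02 ± 0.11), and Aldh7a1, an aldehyde dehydrogenase of lysine breakdown (-1.0 ± 0.12), all 3 with the B6 low-fat group apart. Genes named Hsd were likewise grouped by name after their values were seen. Among the 16 measured, 5 (31.2%, against 5.49% of all genes) were more negative in B6, the fifth being Hsd3b6.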
